A study of Mus musculus with 10 samples.

Results

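Gene expression was compared between jugular and nodose neurons of the mouse vagus nerve in 8 of the 10 pools of the series: 4 pools of jugular neurons and 4 pools of Trpv1-expressing nodose neurons. The members were chosen by their labels alone, and the 2 nodose pools negative for tdTomato were left out of the fit. Both ganglia were collected by a pair of selections, with 2 pools for each ganglion in each selection. For the Trpv1-tdTomato selection, red neurons of Trpv1-tdTomato mice were picked under the microscope, 30 neurons per pool. In these mice Cre recombinase from the Trpv1 locus switches on the red protein tdTomato, so a cell that expressed Trpv1 at any earlier time is also red. The 4 pools of both ganglia came from 2 mice. For the capsaicin selection, dissociated neurons of C57BL/6 mice were tested in a calcium assay with 1 µM capsaicin, which opens TRPV1, and with the P2X receptor agonist α,β-methylene ATP at 10 µM. Nodose neurons that had responded to both agonists made up pools of 14 and 15 cells, while the jugular pools held 15 and 16 neurons that had responded to capsaicin only. The age of the mice is not given in the sources used here. Jugular cells were taken from the most rostral and nodose cells from the most caudal part of the fused ganglion.

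The jugular and nodose ganglia hold the cell bodies of vagal sensory neurons, whose axons run to the airways, the heart and the gut. Jugular neurons come from the neural crest, like the neurons of dorsal root ganglia, and nodose neurons come from epibranchial placodes. Neurons of both ganglia include C-fibers with the channel TRPV1, which opens to heat, acid and capsaicin, and some of these fibers release neuropeptides such as substance P from their endings.

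The total count per pool ranged from 153686267 to 167704327 in the Trpv1-tdTomato selection and from 17666710 to 30810863 in the capsaicin selection. In CPM, counts normalised for depth by size factors, 3 counts corresponded to 0.0138 to 0.0181 and to 0.135 to 0.201, respectively, so a level under these values could not be told from 0. These limits cover counting error only, because the cDNA was amplified by PCR. Each selection had its own mouse strain, sequencing core and depth, and these cannot be told apart. The marker list of sensory neurons summed to 6810 to 11300 CPM in the jugular and 11600 to 14900 CPM in the nodose pools. The 12 markers of satellite glia and Schwann cells summed to 1820 to 4630 CPM and 2140 to 4140 CPM, and the 5 red blood cell markers were at 0 in every pool. Apoe, Pmp22, Fabp7 and S100b held most of the glial sum, while the glial genes Sox10, Erbb3, Kcnj10 and Cdh19 were at most 0.205, 0.0302, 1.38 and 6.77 CPM in the 8 pools. The immune markers summed to at most 20.6 CPM in jugular and 89.4 CPM in nodose pools, the fibroblast markers to at most 275 and 45.4 CPM, and the endothelial markers to 0 and at most 28.9 CPM. The 5 markers of sympathetic neurons summed to 40.7 to 119 CPM in the jugular pools and 70.8 to 1500 CPM in the nodose pools, the nociceptor markers to 305 to 1670 and 413 to 1080 CPM, and the markers of low-threshold mechanoreceptors to 193 to 463 and 0.246 to 339 CPM. Among the sympathetic markers Dbh was at most 0.0285 CPM and Npy at 0 in all 8 pools. The part of glia or immune cells in the results below was not tested.

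The genes that bear on the selections were examined first. Below, the 4 values of a ganglion are CPM in the order of the Trpv1-tdTomato replicates 1 and 2 and the capsaicin replicates 1 and 2. A log2 fold change is given throughout as jugular minus nodose, from edgeR's quasi-likelihood test, in which the selection was a covariate. This test returns no standard error. The value marked SE was worked back from the fold change and its test statistic, so it is an approximate error and not an estimate of the fit. The adjusted p is that of Benjamini and Hochberg over all genes tested. Trpv1 was at 20.7, 29.4, 256.5 and 80.8 CPM in the jugular pools and at 237, 137, 252 and 285 CPM in the nodose pools. It was detected in all 8 pools, lowest in the jugular pools of the Trpv1-tdTomato selection, and the ganglia overlapped (log2 fold change -1.65 ± 0.79 SE, adjusted p = 0.49). In the tdTomato-negative nodose pools it was at 0.0393 and 0.0377 CPM. P2rx3, a subunit of the receptor for α,β-methylene ATP, was at 161, 205, 182 and 255 CPM across the jugular pools and 91.4, 237, 234.5 and 463.5 CPM across the nodose pools. The ganglia overlapped for P2rx3 as well (log2 fold change -0.08 ± 0.49 SE, adjusted p = 1).

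Of 11959 genes tested, 61 were called (0.51%), which required an adjusted p no higher than 0.1, a difference of 2-fold or more and 10 CPM or more in all 4 pools of a ganglion. Of these, 33 were higher in jugular neurons (0.276% of the genes tested) and 28 were higher in nodose neurons (0.234%). An unadjusted p under 0.05 was reached by 1333 genes. For 55 of the 61 called genes the 8 pools did not overlap between the ganglia. Over all genes tested, 3.19% did not overlap and were higher in jugular and 1.91% did not overlap and were higher in nodose. The count of genes higher in jugular fell to 19 without jugular capsaicin replicate 1 and to 13 without jugular capsaicin replicate 2, and DESeq2 called 327 and 187 genes. In pools of cells, fewer cells that express a gene and less RNA per cell cannot be told apart. Nothing in the labels says that the pools of a group came from separate animals, so the p-values measure the spread between these pools.

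**Figure D1:**
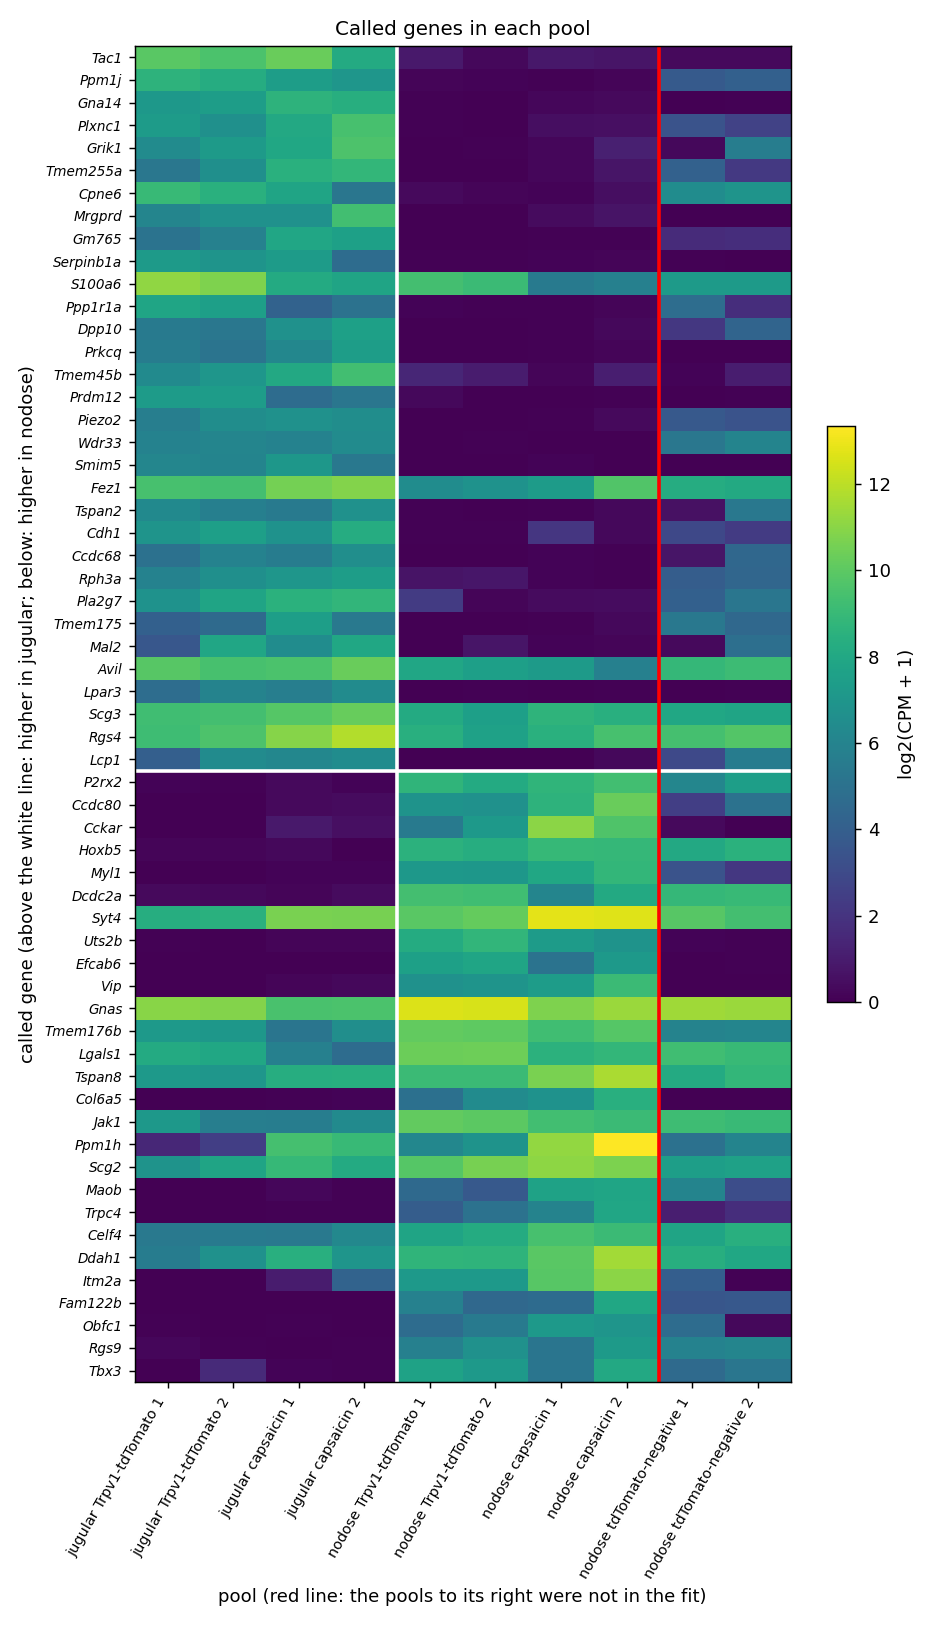
Levels of 59 of the 61 called genes (rows) in the 8 pools of the fit and, right of the red line, the 2 tdTomato-negative nodose pools (columns), as log2(CPM + 1) in colour. Most genes are bright in all 4 pools of one ganglion and dark in all 4 pools of the other, while genes such as Gnas, Syt4 and S100a6 are bright in all pools.

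The called genes formed a large group near 0 in the fitted pools of 1 ganglion and a smaller group graded in both. Some of the large group, such as Cpne6 (87.6 and 119.7 CPM), were not near 0 in the tdTomato-negative nodose pools outside the fit. Others, such as Tac1 (0.249 and 0.25 CPM), were. In 40 of the 61 genes all 4 pools of the lower ganglion were under 1 CPM: 24 genes higher in jugular, with log2 fold changes of 8.83 to 12.15 (median 10.9), and 16 genes higher in nodose, with -13.20 to -10.24 (median -11.6). The low side of these genes rests on few counts, so their fitted fold changes depend on the small count that the software adds and are not bounds. Their SE, worked back from these fold changes, depend on that added count as well. Another 14 genes were at 10 CPM or more in all 8 pools, 5 higher in jugular, with log2 fold changes of 1.63 to 2.74, and 9 higher in nodose, with -3.17 to -1.42. The remaining 7 genes lay between these classes.

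The 12 leading genes of the jugular direction were the called genes with the smallest p among those whose pools did not overlap between the ganglia. The first was Tac1, which encodes the precursor of substance P and neurokinin A and lies at chr6:7554879-7565834 (GRCm38, plus strand). Tac1 was at 996, 764, 1243 and 284.5 CPM across the jugular pools and 0.9, 0.222, 0.788 and 0.672 CPM across the nodose pools (log2 fold change 10.45 ± 0.81 SE, adjusted p = 0.000262). Every jugular pool was far above every nodose pool, and the tdTomato-negative nodose pools, at 0.249 and 0.25 CPM, were as low as the other nodose pools. The call held whichever pool was left out, but the adjusted p of Tac1 was 0.517 with limma-voom, at a log2 fold change of 10.26. Gna14, an alpha subunit of the Gq family of G proteins, was at 139, 173, 395 and 335 CPM across the jugular pools and 0.0544, 0.0342, 0.197 and 0.269 CPM across the nodose pools (log2 fold change 11.34 ± 0.91 SE, adjusted p = 0.000262). Ppm1j, a protein phosphatase of the PP2C family, was at 392, 309.5, 174 and 129 CPM across the jugular pools and 0.127, 0.0855, 0.0492 and 0.134 CPM across the nodose pools (log2 fold change 11.40 ± 0.9 SE, adjusted p = 0.000262). Its level in the tdTomato-negative nodose pools, 13 and 15.9 CPM, lay between those of the ganglia.

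Plxnc1, a receptor of semaphorin 7A, was at 158, 103, 262 and 695 CPM across the jugular pools and 0.0423, 0.0342, 0.394 and 0.47 CPM across the nodose pools (log2 fold change 11.08 ± 0.93 SE, adjusted p = 0.000314). Grik1, the kainate receptor subunit GluK1, was at 85.4, 155, 243 and 779 CPM across the jugular pools and 0.03625, 0.057, 0.197 and 1.28 CPM across the nodose pools (log2 fold change 10.57 ± 1.07 SE, adjusted p = 0.0012). Among the nodose pools of the fit, the highest value of Grik1 was in capsaicin replicate 2, still far below the lowest jugular pool. The tdTomato-negative nodose pools held 0.21 and 49.8 CPM of Grik1. Mrgprd, a Mas-related receptor known from non-peptidergic nociceptors of the skin, was at 67.3, 108, 107 and 627.5 CPM across the jugular pools and 0.03625, 0.0057, 0.295 and 0.604 CPM across the nodose pools (log2 fold change 10.97 ± 1.32 SE, adjusted p = 0.00396), and its adjusted p was 0.149 without jugular capsaicin replicate 2. Cpne6, a copine that binds membranes in the presence of calcium, was at 515.5, 352, 225 and 37.4 CPM across the jugular pools and 0.266, 0.12, 0.0985 and 0.403 CPM across the nodose pools (log2 fold change 10.31 ± 1.11 SE, adjusted p = 0.00176). The tdTomato-negative nodose pools held 87.6 and 119.7 CPM of Cpne6, above every Trpv1-expressing nodose pool and above the lowest jugular pool.

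Tmem255a, which encodes a membrane protein, was at 38.5 to 454 CPM across the jugular pools and at most 0.672 CPM across the nodose pools (log2 fold change 11.27 ± 1.2 SE, adjusted p = 0.00169). Serpinb1a, an inhibitor of serine proteases, was at 153, 121, 160.5 and 25.7 CPM across the jugular pools and at most 0.134 CPM across the nodose pools (log2 fold change 10.78 ± 1.51 SE, adjusted p = 0.0112). Ppp1r1a, an inhibitor of protein phosphatase 1, was at 228.5, 184, 17.1 and 32.1 CPM across the jugular pools and at most 0.134 CPM across the nodose pools (log2 fold change 9.94 ± 1.45 SE, adjusted p = 0.0145), and its adjusted p was 0.125 without jugular Trpv1-tdTomato replicate 1. The jugular levels of Ppp1r1a were higher in the Trpv1-tdTomato than in the capsaicin pools. Dpp10, an auxiliary subunit of Kv4 potassium channels, was at 42.4, 38, 106 and 193.5 CPM across the jugular pools and at most 0.202 CPM across the nodose pools (log2 fold change 11.29 ± 1.69 SE, adjusted p = 0.0173), with an adjusted p of 0.197 without jugular capsaicin replicate 2. Gm765 was at 33.2, 57.5, 240.1 and 194 CPM across the jugular pools and at most 0.0672 CPM across the nodose pools (log2 fold change 11.35 ± 1.41 SE, adjusted p = 0.00497).

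The leading genes of the nodose direction were chosen by the same rule. The first was P2rx2, the P2X2 subunit of ATP-gated channels, at chr5:110339812-110343212 (GRCm38, minus strand). P2rx2 was at 418, 283, 432 and 629.6 CPM across the nodose pools and 0.0848, 0.0599, 0.271 and 0.0955 CPM across the jugular pools (log2 fold change -11.73 ± 0.82 SE, adjusted p = 0.000262). The capsaicin pools had been selected on the response to a P2X agonist, but the Trpv1-tdTomato pools had not, and the ganglia did not overlap in either selection. The tdTomato-negative nodose pools held 69.4 and 176 CPM of P2rx2.

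Ccdc80, a secreted protein of the extracellular matrix, was at 116.5, 105, 400.1 and 1275 CPM across the nodose pools and 0.0199, 0.023, 0.271 and 0.334 CPM across the jugular pools (log2 fold change -11.64 ± 0.88 SE, adjusted p = 0.000262). Cckar, the receptor through which cholecystokinin acts on vagal afferents, was at 42.7, 144, 2110 and 807 CPM across the nodose pools and 0.0199, 0.00921, 0.858 and 0.477 CPM across the jugular pools (log2 fold change -11.62 ± 0.95 SE, adjusted p = 0.000289). The nodose levels of Cckar were higher in both capsaicin pools than in both Trpv1-tdTomato pools, while the tdTomato-negative nodose pools held 0.271 and 0.0189 CPM. The adjusted p of Cckar was 0.121 with limma-voom. Hoxb5, a homeobox transcription factor, was at 381, 317.5, 493 and 470.4 CPM across the nodose pools and 0.115, 0.129, 0.226 and 0 CPM across the jugular pools (log2 fold change -11.61 ± 1.05 SE, adjusted p = 0.000554), and at 264 and 369.9 CPM in the tdTomato-negative nodose pools. Its nodose values lay closer together than those of Ccdc80 or Cckar.

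Vip and Uts2b encode the precursors of vasoactive intestinal peptide and of urotensin II-related peptide. Vip was at 105, 117, 163.5 and 539.5 CPM across the nodose pools and 0.00997, 0.023, 0.1355 and 0.239 CPM across the jugular pools (log2 fold change -11.55 ± 1.29 SE, adjusted p = 0.00206). Uts2b was at 297, 439, 157 and 117 CPM across the nodose pools and 0.0449, 0.03225, 0.1355 and 0.143 CPM across the jugular pools (log2 fold change -11.50 ± 1.24 SE, adjusted p = 0.00176). Neither was above 0.08 CPM in the tdTomato-negative nodose pools, so their presence in nodose neurons followed both the ganglion and the red label.

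Myl1, a myosin light chain best known from fast skeletal muscle, was at 139, 133, 249 and 454 CPM across the nodose pools and 0.015, 0.00921, 0.0903 and 0.0955 CPM across the jugular pools (log2 fold change -12.45 ± 1.17 SE, adjusted p = 0.000686). Dcdc2a, a doublecortin-domain protein that binds microtubules, was at 651, 619, 65.7 and 275 CPM across the nodose pools and 0.269, 0.212, 0.1355 and 0.334 CPM across the jugular pools (log2 fold change -10.29 ± 0.97 SE, adjusted p = 0.000686). Efcab6, which encodes a protein with EF-hand calcium-binding domains, was at 193, 232, 33.5 and 148 CPM across the nodose pools and 0.0349, 0.023, 0 and 0 CPM across the jugular pools (log2 fold change -13.20 ± 1.45 SE, adjusted p = 0.00198). In the tdTomato-negative nodose pools Dcdc2a stayed at 477 and 506 CPM and Efcab6 at 0.0262 and 0.0472 CPM, so Dcdc2a was present on both sides of the red label and Efcab6 only with it in these pools.

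**Figure D2:**
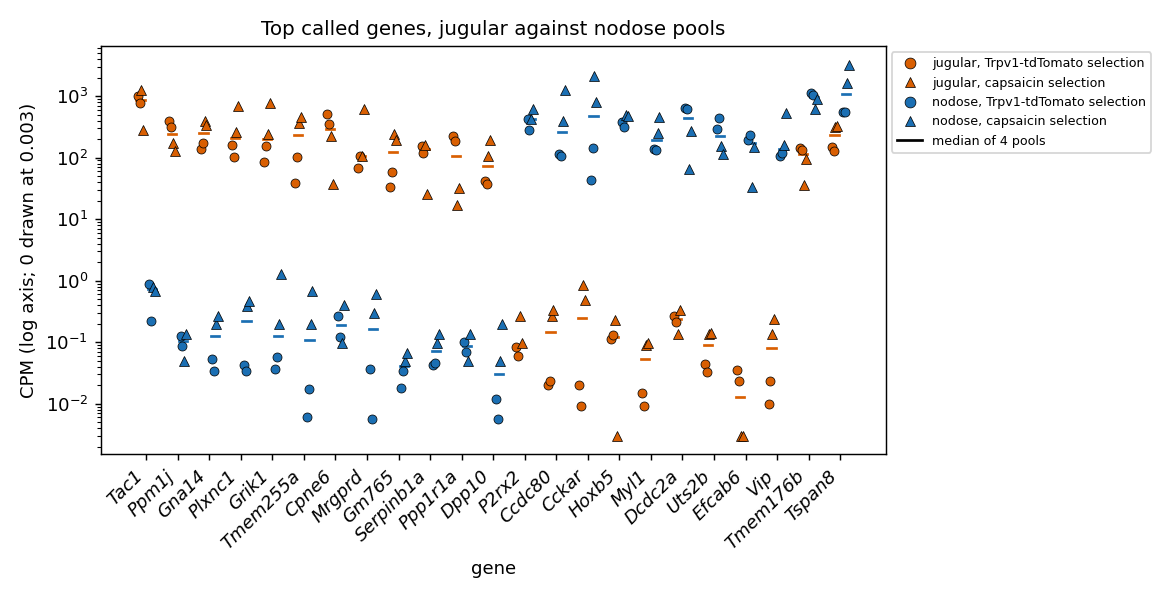
CPM (log axis) of the called, non-overlapping genes with the smallest p in each direction. Jugular pools are orange and nodose pools blue, with circles for the Trpv1-tdTomato and triangles for the capsaicin selection. The median of 4 pools is drawn as a line. By this choice of genes, all jugular pools from Tac1 to Dpp10 and all nodose pools from P2rx2 to Tspan8 lie above those of the other ganglion. The margin is narrowest for Tspan8.

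The promoters of the leading genes are shown because the genes were on in the fitted pools of 1 ganglion and off or nearly off in those of the other. The sequences are from RefSeq on GRCm38.p6, 5′ to 3′ on the strand of the gene, and end at the base before the RefSeq start. They were searched on both strands for TAATTA, a core of homeodomain sites, AGGTGTGA, a T-box motif, CAGCTG, an E-box, and TGACGTCA, the cAMP response element, and a match is in capitals. P2rx2, Ccdc80, Cckar and Hoxb5 were not searched here. The genes used were Tac1, Ppm1j and Gna14 of the jugular and Myl1, Dcdc2a and Uts2b of the nodose direction, of which the windows of Tac1 and Myl1 reach into exons annotated by GENCODE and are not printed. Upstream of Ppm1j (chr3:104780806-104781055, plus strand) and Gna14 (chr19:16435417-16435666, plus strand), which were higher in jugular, and of Dcdc2a (chr13:25055754-25056003, plus strand) and Uts2b (chr16:27370240-27370489, minus strand), which were higher in nodose, the 250 bases read as follows.
Ppm1j: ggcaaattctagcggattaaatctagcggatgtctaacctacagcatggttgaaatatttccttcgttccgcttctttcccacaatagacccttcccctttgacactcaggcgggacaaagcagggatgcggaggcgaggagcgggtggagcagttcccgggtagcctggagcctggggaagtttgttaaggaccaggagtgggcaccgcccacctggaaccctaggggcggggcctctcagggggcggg
Gna14: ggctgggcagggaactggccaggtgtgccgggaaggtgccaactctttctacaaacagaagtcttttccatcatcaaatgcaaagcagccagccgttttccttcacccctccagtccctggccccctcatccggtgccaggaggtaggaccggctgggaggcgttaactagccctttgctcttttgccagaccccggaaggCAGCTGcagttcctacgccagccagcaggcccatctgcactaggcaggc
Dcdc2a: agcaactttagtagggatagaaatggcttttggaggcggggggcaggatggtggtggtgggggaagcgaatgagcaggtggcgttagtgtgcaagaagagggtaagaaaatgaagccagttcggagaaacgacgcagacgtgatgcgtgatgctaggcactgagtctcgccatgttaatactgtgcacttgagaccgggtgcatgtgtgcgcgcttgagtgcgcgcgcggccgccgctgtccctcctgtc
Uts2b: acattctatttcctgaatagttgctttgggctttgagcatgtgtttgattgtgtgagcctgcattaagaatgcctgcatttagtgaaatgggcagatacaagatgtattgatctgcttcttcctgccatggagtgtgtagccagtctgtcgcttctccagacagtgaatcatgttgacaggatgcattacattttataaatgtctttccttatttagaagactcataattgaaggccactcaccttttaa

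CAGCTG occurred once upstream of Gna14, 49 bases before the RefSeq start, and once in the window of Myl1, 224 bases before it. It is present in 13% of all 32851 promoter windows of this length. TAATTA occurred once in the window of Tac1, 100 bases before the RefSeq start, and is present in 4.84% of all windows. The GENCODE starts of Tac1 and Myl1 lie 182 and 348 bases before the RefSeq starts, so both matches fall within the genes as GENCODE places them. None of the 6 windows held AGGTGTGA (1.12% of all windows) or TGACGTCA (1.55%), and Ppm1j, Dcdc2a and Uts2b held none of the 4 motifs. These are matches of letters, not sites, and no pattern separated the jugular from the nodose genes in them.

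Graded genes differed by smaller factors at higher levels, and several of them also differed between the selections. Gnas, the stimulatory G protein alpha subunit that raises cAMP, was at 2052, 1860, 742 and 759.7 CPM across the jugular pools and 6407, 5886, 1760 and 2557 CPM across the nodose pools (log2 fold change -1.42 ± 0.17 SE, adjusted p = 0.00396). Within each selection both nodose pools were above both jugular pools, but over all 8 pools the ganglia overlapped, since both capsaicin groups were lower. Syt4, a synaptotagmin of secretory vesicles, was at 313, 349, 1611 and 1540 CPM across the jugular pools and 989, 1189, 7073 and 6583 CPM across the nodose pools (log2 fold change -1.77 ± 0.17 SE, adjusted p = 0.00104). For Syt4 the capsaicin pools were the higher ones in both ganglia. S100a6, a small calcium-binding protein, was at 2271, 1715, 289.9 and 225 CPM across the jugular pools and 656.5, 539.8, 43.5 and 55.9 CPM across the nodose pools (log2 fold change 2.21 ± 0.32 SE, adjusted p = 0.0126), higher in jugular within each selection.

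Tmem176b and Tspan8 were graded as well and did not overlap over all 8 pools. Tmem176b, a membrane protein, was at 1137, 1055, 614 and 904 CPM across the nodose pools and 141.5, 131, 35.7 and 96.5 CPM across the jugular pools (log2 fold change -3.09 ± 0.4 SE, adjusted p = 0.00668), and at 61.6 and 67.4 CPM in the tdTomato-negative nodose pools, which is within the jugular range. Tspan8, a tetraspanin, was at 557, 557, 1617 and 3268 CPM across the nodose pools and 150.4, 129.6, 317 and 326 CPM across the jugular pools (log2 fold change -2.28 ± 0.3 SE, adjusted p = 0.00739). The other graded genes were Avil, Fez1, Rgs4 and Scg3, which were higher in jugular, and Scg2, Ddah1, Lgals1, Celf4 and Jak1, which were higher in nodose. The call of Fez1 was lost without either jugular capsaicin or either nodose Trpv1-tdTomato pool (adjusted p up to 0.136). That of Rgs4 was lost without either jugular capsaicin pool, nodose Trpv1-tdTomato replicate 2 or either nodose capsaicin pool (up to 0.199). Ddah1 lost its call without either jugular capsaicin pool or nodose Trpv1-tdTomato replicate 1 (up to 0.116), and Celf4 in 6 of the 8 fits, all but those without jugular Trpv1-tdTomato replicate 1 or nodose capsaicin replicate 2 (up to 0.171). With limma-voom the adjusted p passed 0.1 for 7 of the 14 graded genes: Syt4 (0.17), S100a6 (0.198), Tmem176b (0.295), Lgals1 (0.473), Scg2 (0.66), Rgs4 (0.744) and Avil (0.989). Scaling by size factors in edgeR ended the calls of Rgs4 (0.117), Fez1 (0.128) and Scg3 (0.141).

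A few further called genes were picked after their values were seen. The granins Scg3 and Scg2, both proteins of dense-core vesicles, differed in opposite directions. Scg2 was at 916, 1579, 2178 and 1704 CPM across the nodose pools and 114, 220, 486 and 286 CPM across the jugular pools (log2 fold change -2.48 ± 0.37 SE, adjusted p = 0.0173). Scg3 was at 600, 667, 919 and 1233 CPM across the jugular pools and 284, 182, 411 and 341 CPM across the nodose pools (log2 fold change 1.63 ± 0.33 SE, adjusted p = 0.0909), and its call was lost in 7 of the 8 fits that left out a pool, all but that without nodose capsaicin replicate 2 (adjusted p up to 0.301). The call of Scg2 held in all 8 fits. Jak1, a kinase of cytokine receptors, was at 1114, 1011, 626 and 544 CPM across the nodose pools and 137, 50.45, 49 and 81.6 CPM across the jugular pools (log2 fold change -3.17 ± 0.46 SE, adjusted p = 0.0142). Lgals1, galectin 1, was at 1295, 1339, 387 and 458 CPM across the nodose pools and 282.5, 245, 55.3 and 25.8 CPM across the jugular pools (log2 fold change -2.70 ± 0.36 SE, adjusted p = 0.00739). Avil, the actin-binding advillin of sensory neurons, was at 937, 711, 759.6 and 1255 CPM across the jugular pools and 242, 184, 154 and 55.6 CPM across the nodose pools (log2 fold change 2.74 ± 0.53 SE, adjusted p = 0.0734). The call of Avil was lost without either jugular capsaicin pool, nodose Trpv1-tdTomato replicate 2 or nodose capsaicin replicate 1 (adjusted p up to 0.154), while those of Jak1 and Lgals1 held in all 8 fits.

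Of the genes near 0 in the fitted pools of 1 ganglion, Col6a5, a chain of type VI collagen, was higher in nodose. Its level was 29.2, 86.6, 109 and 345.5 CPM across the nodose pools and at most 0.0955 CPM across the jugular pools (log2 fold change -11.36 ± 1.53 SE, adjusted p = 0.0085). It was at 0.0131 and 0.00472 CPM in the tdTomato-negative nodose pools, so its level in nodose neurons went with the red label in these pools. Prkcq, protein kinase C theta, was at 47.7, 34.1, 72.2 and 172 CPM across the jugular pools and at most 0.134 CPM across the nodose pools (log2 fold change 11.39 ± 1.8 SE, adjusted p = 0.025), and its adjusted p was 0.233 without jugular capsaicin replicate 2. Wdr33, a subunit of the complex that recognises the polyadenylation signal, is needed in all cells, and it was at 60, 67.4, 58.6 and 85.7 CPM across the jugular pools and 0.0242, 0.0399, 0 and 0 CPM across the nodose pools (log2 fold change 12.03 ± 2.09 SE, adjusted p = 0.0431). In the tdTomato-negative nodose pools Wdr33 was at 38.1 and 63 CPM, within or near the jugular range. Leaving out jugular Trpv1-tdTomato replicate 2, either jugular capsaicin pool or nodose Trpv1-tdTomato replicate 1 ended its call (adjusted p up to 0.154).

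**Figure D3:**
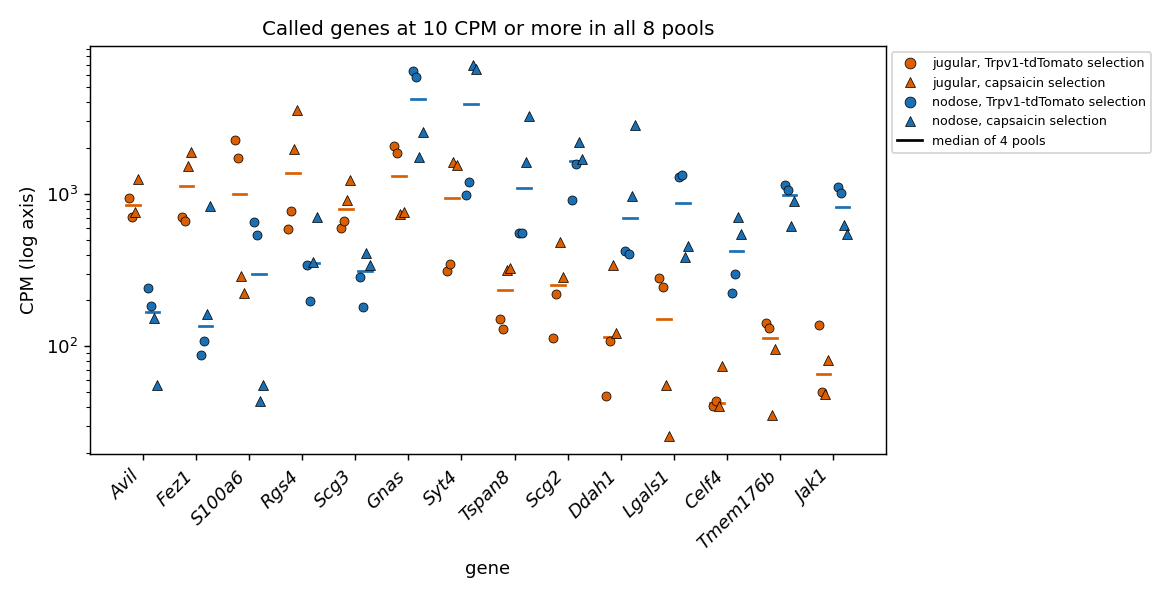
CPM (log axis) of the 14 called genes at 10 CPM or more in all 8 pools, ordered from the highest to the lowest log2 fold change, with colours, symbols and median lines as in the plot of the leading genes. Within each selection the 2 pools of one ganglion lie above the 2 pools of the other for Gnas, Syt4 and S100a6, although circles and triangles of the same ganglion are far apart.

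The ion channels were read from lists of channel families. Of the P2X channels, 4 of 7 were tested, P2rx2 was called in the nodose direction and none was called in the jugular direction. The capsaicin pools had been selected on a P2X response, so for this family the call is not free of the selection. Of the 16 TRP, acid-sensing and Piezo channels tested, 3 were called, beside 0.51% of all genes tested. Piezo2, the mechanically activated channel of touch and stretch, was at 51.1, 91.1, 106 and 93.8 CPM across the jugular pools and 0.0121, 0.0228, 0.0492 and 0.269 CPM across the nodose pools (log2 fold change 10.80 ± 1.78 SE, adjusted p = 0.0298). In the tdTomato-negative nodose pools Piezo2 was at 12.2 and 9.79 CPM, between the levels of the jugular and the Trpv1-expressing nodose pools. Piezo2 was also on the list of low-threshold mechanoreceptor markers, of which 4 of 5 were tested and Piezo2 alone was called (median log2 fold change of the list 7.3, beside 0.18 over all genes tested). Of the other markers on that list, Nefh was present in both ganglia (276, 345, 66.35 and 114 CPM across the jugular and 92.55, 196, 0.197 and 338 CPM across the nodose pools), and Pvalb, P2ry1 and Ntrk3 were each above 1 CPM in at most 2 of the jugular and in none of the nodose pools. Trpc4 went the other way, at 14.45, 31.2, 61.1 and 236 CPM across the nodose pools and 0.00499, 0.00461, 0.0452 and 0.0477 CPM across the jugular pools (log2 fold change -11.56 ± 1.97 SE, adjusted p = 0.0388). The pools did not overlap for Piezo2 or Trpc4, but both calls were lost when single pools were left out: for Piezo2 without either jugular capsaicin pool (adjusted p up to 0.136) and for Trpc4 without any 1 of the jugular pools or nodose capsaicin replicate 2 (up to 0.185).

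Of 15 ionotropic glutamate and GABA receptor subunits tested, Grik1 alone was called, beside 0.51% of all genes tested. None of 14 voltage-gated sodium channel genes, 56 potassium channel genes and 14 HCN and calcium channel genes was called by edgeR. An unadjusted p under 0.05 was reached by 5, 12 and 1 of them, beside 11.1% of all genes tested. The CPM condition of a call was met by 5, 13 and 4 of these genes, and the others could not be called. Scn3b, a beta subunit of sodium channels, was at 18.7, 14.5, 50.1 and 49.3 CPM across the jugular pools and 42, 74.8, 434 and 232 CPM across the nodose pools (log2 fold change -2.14 ± 0.75 SE, adjusted p = 0.351). Scn4b, another beta subunit, reached 95.6, 71.5, 2.35 and 0 CPM across the jugular pools and 4.2, 0.0285, 0 and 0 CPM across the nodose pools (log2 fold change 6.34 ± 2.53 SE, adjusted p = 0.385), so its jugular level was confined to the Trpv1-tdTomato pools and 1 capsaicin pool. Both had an adjusted p under 0.1 with DESeq2 (0.00246 and 0.0362), but Scn4b did not meet the CPM condition. Kcna1, the Kv1.1 channel that limits repetitive firing, was at 134, 47.9, 33.8 and 0.43 CPM across the jugular pools and at most 0.0672 CPM across the nodose pools (log2 fold change 10.61 ± 2.44 SE, adjusted p = 0.137). Kcnk3, the acid-sensitive leak channel TASK-1, was at 125, 116.5, 19.8 and 24.7 CPM across the nodose pools and at most 0.632 CPM across the jugular pools (log2 fold change -8.66 ± 2.27 SE, adjusted p = 0.237). Cacna1c, an L-type calcium channel, was at 43.8, 24.5, 37 and 38.2 CPM across the jugular pools and 7.23, 0.695, 0 and 0 CPM across the nodose pools (log2 fold change 7.30 ± 3.5 SE, adjusted p = 0.488). The ganglia did not overlap for Kcna1, Kcnk3 and Cacna1c, and DESeq2 gave adjusted p of 9.18e-11, 4.99e-10 and 0.00118. Of these, Kcna1 did not meet the CPM condition.

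None of the 7 nicotinic and 5-HT3 receptor subunits tested was called by edgeR, and 4 had an unadjusted p under 0.05, beside 11.1% of all genes tested. The CPM condition of a call was met by 4 of the 7. Htr3a, a subunit of the serotonin-gated channel, was at 829.7, 1092, 215 and 393 CPM across the nodose pools and 92.7, 27.5, 45.35 and 0.239 CPM across the jugular pools (log2 fold change -3.70 ± 1.08 SE, adjusted p = 0.298). The adjusted p of Htr3a was 0.0233 with DESeq2 and 0.0836 without jugular capsaicin replicate 2, the pool with its lowest value. Chrnb4, a nicotinic subunit, was at 57.1, 151, 307 and 129 CPM across the nodose pools and 1.94, 2.44, 0.1355 and 34.1 CPM across the jugular pools (log2 fold change -4.47 ± 1.53 SE, adjusted p = 0.342), with an adjusted p of 0.00696 with DESeq2. All nodose pools were above all jugular pools for both genes.

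**Figure D4:**
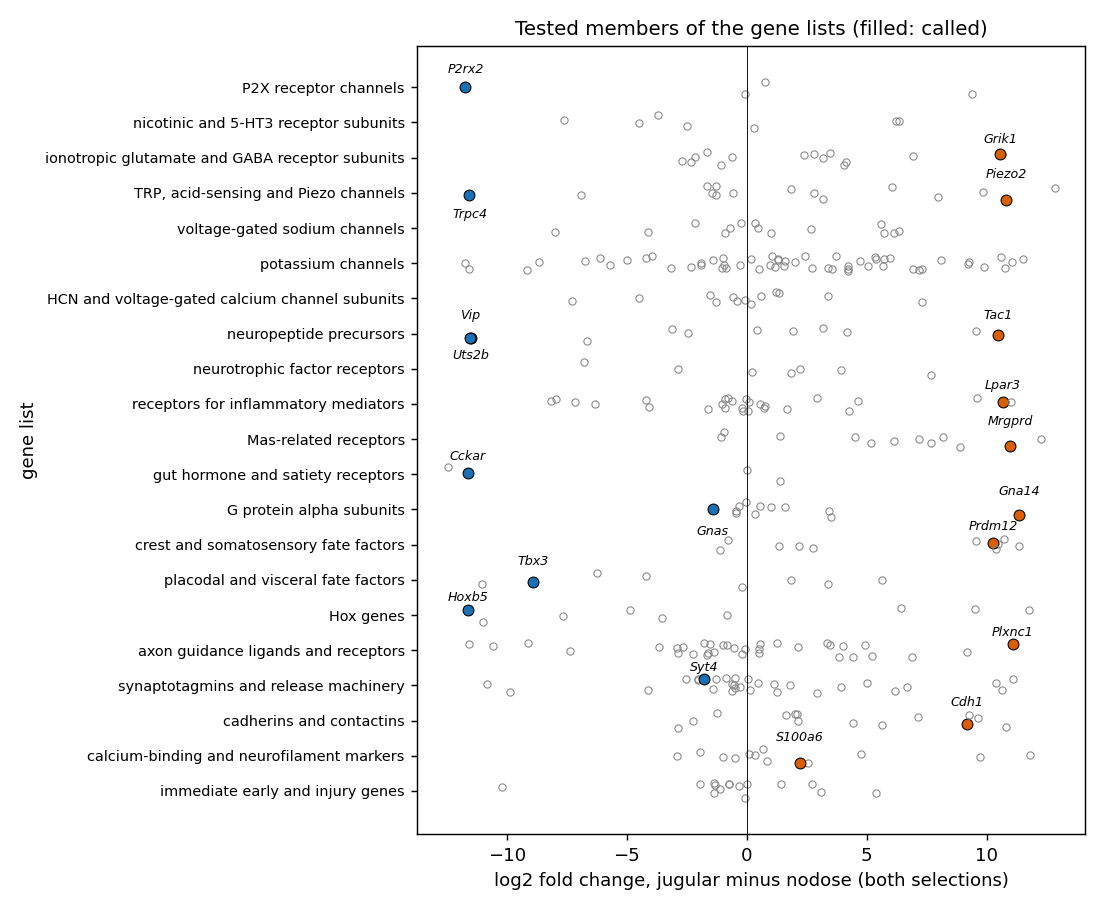
Log2 fold change, jugular minus nodose, of the tested members reported here of the 21 gene lists (rows), called genes filled and named, other genes open. Called genes sit on both sides of 0 among TRP and Piezo channels, neuropeptide precursors and G protein alpha subunits, and many open circles lie as far from 0 as the called ones.

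Among receptors, calls were few in each family, beside 0.51% of all genes tested. Of 12 Mas-related receptors tested, Mrgprd was called, and the list had a median log2 fold change of 6.64 beside 0.18 over all genes tested. Of 27 receptors for inflammatory mediators tested, Lpar3 alone was called, at 26.6, 60.8, 52.2 and 86.8 CPM across the jugular pools and at most 0.0672 CPM across the nodose pools (log2 fold change 10.68 ± 2.12 SE, adjusted p = 0.0849). Lpar3 encodes a receptor of lysophosphatidic acid, and its call was lost in each of the 8 fits that left out a pool (adjusted p from 0.103 to 0.301). Of 4 gut hormone and satiety receptors tested, Cckar was called. Of 7 neurotrophic factor receptors tested none was called by edgeR, and 2 had an unadjusted p under 0.05, beside 11.1% of all genes tested. The CPM condition of a call was met by 5 of the 7. Gfra3, the co-receptor of artemin, was at 39.8, 56.3, 232 and 57.8 CPM across the jugular pools and 0.0181, 1.19, 0.246 and 0.403 CPM across the nodose pools (log2 fold change 7.68 ± 1.88 SE, adjusted p = 0.173). Its adjusted p was 1.31e-07 with DESeq2 and 0.0949 without nodose Trpv1-tdTomato replicate 2, the nodose pool with the highest value. Ntrk2, the receptor of brain-derived neurotrophic factor, was at 88.35, 163, 329.9 and 46.1 CPM across the nodose pools and 8.755, 18.5, 0.0452 and 0.143 CPM across the jugular pools (log2 fold change -6.78 ± 2.18 SE, adjusted p = 0.333), and its adjusted p with DESeq2 was 0.000107. The ganglia did not overlap for Gfra3 and Ntrk2.

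Among 11 neuropeptide precursors tested, Tac1 was called in the jugular direction and Vip and Uts2b in the nodose direction, beside 0.51% of all genes tested. The median log2 fold change of the list was 0.41, beside 0.18 over all genes tested. Among 12 G protein alpha subunits, Gna14 was called in the jugular and Gnas in the nodose direction, beside the same 0.51%.

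The fate factors were tested as lists of somatosensory and of visceral transcription factors. Prdm12, a zinc finger factor needed for the formation of nociceptors, was called among 11 crest and somatosensory factors tested, beside 0.51% of all genes tested. It was at 159.6, 168, 25.6 and 37.3 CPM across the jugular pools and 0.2235, 0.0342, 0 and 0.0672 CPM across the nodose pools (log2 fold change 10.28 ± 1.66 SE, adjusted p = 0.0262). Tbx3, a T-box repressor, was called among 8 placodal and visceral factors, at 209, 142.5, 36 and 264 CPM across the nodose pools and 0.0349, 2.03, 0.0903 and 0.0477 CPM across the jugular pools (log2 fold change -8.92 ± 1.75 SE, adjusted p = 0.0781). Leaving out either jugular Trpv1-tdTomato pool ended the call of Prdm12 (adjusted p up to 0.132), and leaving out either jugular capsaicin or either nodose Trpv1-tdTomato pool ended that of Tbx3 (up to 0.226). An unadjusted p under 0.05 was reached by 6 members of the somatosensory list, in the jugular direction, and by 3 of the visceral list, in the nodose direction, beside 840 and 493 of all 11959 genes. Several members of both lists were known to differ between these pools when the lists were drawn up, so the counts are a description. In the tdTomato-negative nodose pools Prdm12 was at 0.0218 and 0.0377 CPM and Tbx3 at 23.2 and 36.4 CPM. Of 9 Hox genes tested, Hoxb5 was called, and it was the 1 member that met the CPM condition of a call. An unadjusted p under 0.05 was reached by 2 members in the jugular and 3 in the nodose direction. The median log2 fold change of the list was -3.54, beside 0.18 over all genes tested, and rests mostly on genes that missed the CPM condition.

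Among adhesion and guidance genes the calls were in the jugular direction. Cdh1, E-cadherin, which mediates calcium-dependent adhesion, was at 119, 182, 109.8 and 301.5 CPM across the jugular pools and 0.0604, 0.057, 3.25 and 0.2015 CPM across the nodose pools (log2 fold change 9.17 ± 1.65 SE, adjusted p = 0.0512), and its call was lost without jugular capsaicin replicate 2 or either nodose Trpv1-tdTomato pool (adjusted p up to 0.199). It was the 1 called gene of 14 cadherins and contactins, as Plxnc1 was of 34 axon guidance genes. Syt4 was the 1 called gene of 30 synaptotagmins and release genes, and S100a6 that of 13 calcium-binding and neurofilament genes. Over all genes tested, 0.51% were called. Of 15 immediate early and injury genes, 7 met the CPM condition of a call, and none was called by edgeR. An unadjusted p under 0.05 was reached by 3, all in the nodose direction, beside the 493 of 11959 genes in that direction given above. Of these, Atf3, a factor induced by axon injury, was at 245, 346, 888 and 924.5 CPM across the nodose pools and 174, 141, 217 and 190.5 CPM across the jugular pools (log2 fold change -1.38 ± 0.39 SE, adjusted p = 0.28), and its adjusted p was 0.0513 with DESeq2. Gap43, a growth cone protein, was at 1296, 1357, 2586 and 7993 CPM across the nodose pools and 732, 711, 1861 and 423 CPM across the jugular pools (log2 fold change -1.37 ± 0.44 SE, adjusted p = 0.332), and the ganglia overlapped for it.

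No marker of glia, immune cells, fibroblasts, endothelium or sympathetic neurons was called. The CPM condition of a call was met by 5 of the 12 glial and 1 of the 5 sympathetic markers. It was met by 0 of the immune, fibroblast and endothelial markers. The markers that missed it could not be called whatever their difference. Apoe, the glial marker with the smallest p, was at 2363, 3512, 72.85 and 151 CPM across the jugular pools and 2876, 3167, 319.8 and 273 CPM across the nodose pools (log2 fold change -0.57 ± 0.3 SE, adjusted p = 0.577), lower in every capsaicin pool than in every Trpv1-tdTomato pool. Th, tyrosine hydroxylase of catecholamine synthesis, was at 50.3, 119, 0.452 and 0.191 CPM across the jugular pools and 137, 67.5, 788 and 788 CPM across the nodose pools (log2 fold change -5.50 ± 3.16 SE, adjusted p = 0.639). Slc18a2, the vesicular monoamine transporter, was at 2.07, 0, 40.1 and 50.4 CPM across the jugular pools and 8.8, 2.12, 385 and 706 CPM across the nodose pools (log2 fold change -2.80 ± 1.4 SE, adjusted p = 0.522). Th and Slc18a2 were highest in the nodose capsaicin pools, where the other sympathetic markers were low: Slc6a2, the noradrenaline transporter, was at 0.689 and 4.43 CPM, and Dbh, which makes noradrenaline, and Npy were at 0. Of the neuronal markers, Snap25 (log2 fold change -1.28 ± 0.28 SE, adjusted p = 0.111 by edgeR) and Rbfox3 (3.10 ± 1.01 SE, adjusted p = 0.337 by edgeR) had the smallest p and were not called.

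The separation of the ganglia was then examined within each selection. Of the 11959 genes, 1202 had both pools of one ganglion above both pools of the other in each selection and in the same direction, and 550 in opposite directions. The jugular level was the higher one in 636 of the 1202 genes and the nodose level in 566. Fitted alone, the Trpv1-tdTomato selection gave 15 genes called higher in jugular and 20 higher in nodose. The capsaicin selection alone gave none by edgeR, with a smallest adjusted p of 0.155 and 1150 genes at an unadjusted p under 0.05. Of the 35 calls of the Trpv1-tdTomato selection, 34 were tested in the capsaicin pools, which the calls had not used. All 34 had the same direction there, beside 55.8% of all 7741 genes tested in both. The capsaicin pools of the ganglia did not overlap for 31 of the 34, beside 4017 of all 11959 genes in either direction. With DESeq2, 71.5% of 843 such genes had the same direction.

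**Figure D5:**
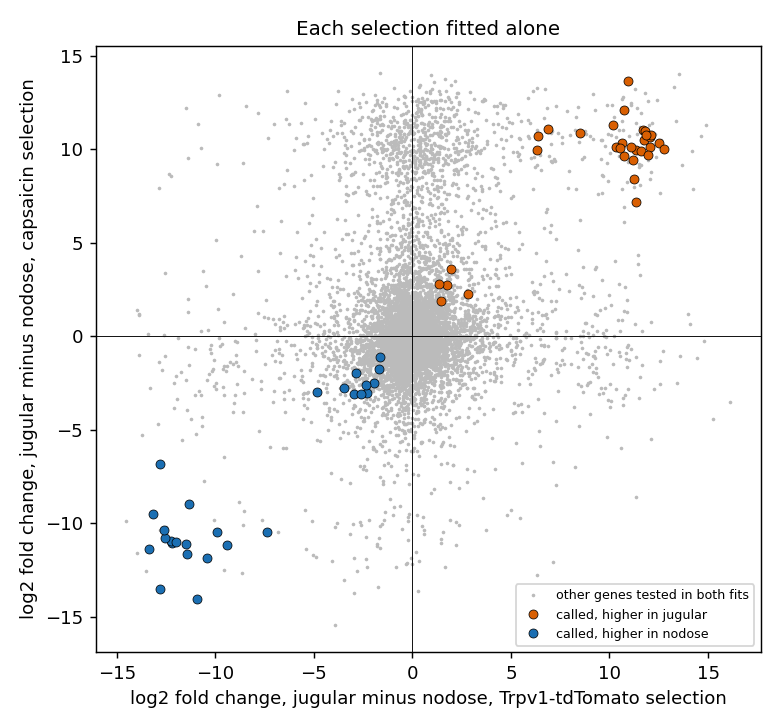
Log2 fold change, jugular minus nodose, of each gene tested in both selections, fitted in the Trpv1-tdTomato pools (horizontal) and in the capsaicin pools (vertical) alone, with called genes in orange (higher in jugular) and blue (higher in nodose). The called genes lie in the 2 quadrants of equal direction, which the fit of both selections favours, and many other genes lie far from 0 in 1 selection and near 0 in the other.

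The difference between the selections was tested by the interaction of ganglion and selection. No gene was called by edgeR (smallest adjusted p 0.104), although 1233 genes had an unadjusted p under 0.05 and DESeq2 called 1248 genes. Th was the named gene with the smallest adjusted p of the interaction, 0.104 by edgeR, with a log2 fold change of -0.23 in the Trpv1-tdTomato selection and -10.88 in the capsaicin selection. For the leading genes the fits of the selections had the same sign but not always like sizes. They were 10.65 and 10.34 for Tac1 and -11.44 and -11.65 for Hoxb5, and edgeR's adjusted p of the interaction was 1 for both. For Uts2b they were -13.17 and -9.53, with an interaction of 3.62 on the log2 scale (edgeR's unadjusted p 0.0179, adjusted p 0.478), and for Ppp1r1a 11.26 and 8.41 (adjusted p 0.688 by edgeR). The count of interaction calls rose to 194 without nodose capsaicin replicate 1 and was 0 to 15 without any other single pool.

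By the median, pools correlated more within a selection than within a ganglion, with overlapping ranges. Over the genes tested, the median Pearson r of log2(CPM + 1) was 0.684 between replicates (range 0.572 to 0.736, lowest for the nodose capsaicin pools), 0.619 between the ganglia within a selection (0.535 to 0.651), 0.559 between the selections within a ganglion (0.495 to 0.603) and 0.514 where both differed. Jugular capsaicin replicate 2 was an exception, with r of 0.585 and 0.603 to the jugular Trpv1-tdTomato pools and 0.583 and 0.535 to the nodose capsaicin pools. These correlations are across genes, which are not independent, and the pools of a selection share core and depth. The first principal component (28.9% of the variance) put the Trpv1-tdTomato pools on one side and the capsaicin pools on the other, with nodose capsaicin replicate 2 farthest out.

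The tdTomato-negative nodose pools, which were not used in the fit, show which of the ganglion genes were also present in nodose neurons without the red label. Of the 28 genes higher in nodose, 16 were above all jugular pools in both negative pools, beside 9.66% of all genes tested. Under 1 CPM in both were 5 of the 28. Of the 33 genes higher in jugular, 9 were under 1 CPM in both negative pools and 11 reached 10 CPM in both. Above all Trpv1-expressing nodose pools in both were 17 of the 33, beside 9.61% of all genes tested. Most called genes were near 0 in the fitted pools of the lower ganglion, so a few reads can put a negative pool above them. The numbers of genes given here are a description. Thus genes such as Hoxb5 and Dcdc2a were shared by the nodose pools, genes such as Vip and Cckar were low outside the Trpv1-expressing nodose pools, and genes such as Cpne6 were low in the Trpv1-expressing nodose pools only. A deficit in Trpv1-expressing nodose neurons is a description of 2 pools, each of 15 neurons, and had no test.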

How the data were processed

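RNA from pools of picked neurons was copied with an oligo-dT ultra-low input kit, amplified by 15 PCR cycles and sequenced as 50 bp pairs. The authors used TopHat2 and Bowtie2 for alignment to mm10 and deposited raw counts per gene symbol from HTSeq, and the strand setting is not given in the sources used here. Without it, reads of overlapping genes cannot be told apart, and 29 of the 60 called genes with a GENCODE entry overlap a gene of the opposite strand.

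Counts of the 8 pools were fitted with edgeR 4.0.16 (R 4.3.3; filterByExpr, TMM, quasi-likelihood test) on ganglion with selection as a covariate. CPM are counts over size factors of DESeq2 1.42.0, scaled to the geometric mean total. Calls needed an adjusted p no higher than 0.1, a difference of 2-fold or more and 10 CPM in all 4 pools of a ganglion. For the interaction, 10 CPM in both replicates of 1 of the 4 groups was required. Genes were named by rule: up to 12 called, non-overlapping genes per direction by smallest p, then for each list up to 4 called members or, with none called, up to 2 with the smallest p, and Trpv1, P2rx2 and P2rx3. The members and lists were chosen with earlier results of these data known. 3 genes that the rule selected are not reported here. Fits were tested on simulated data, and DESeq2, limma 3.58.1 and other settings served as alternatives. Positions are from GENCODE vM21 (GRCm38), and figures were drawn in Python 3.11.15.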

Additional observations from a re-analysis of the deposited data

Results flagged for a closer look

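In each of 84 genes that were called or named, the 4 pools of a ganglion were examined for 1 pool far from the other 3 on the log2(CPM + 1) scale (gap over range above Dixon's 95% limit). Of the 168 groups, 13 passed this limit, and chance flags about 5%. In the jugular pools, Serpinb1a was at 25.7 CPM in capsaicin replicate 2 against 120.9 to 160.5 CPM in the others, which left it above all nodose pools. Tbx3 was at 2.03 CPM in jugular Trpv1-tdTomato replicate 2, against at most 0.0903 CPM in the other jugular pools, and Kcnk3 at 0.632 CPM in jugular capsaicin replicate 1, against at most 0.0955 CPM. Cd68 was at 20.6 CPM in jugular capsaicin replicate 1 and 0 in the other jugular pools, and Cd74 at 0.00499 CPM in jugular Trpv1-tdTomato replicate 1 and 0 in the others, which is below the level of 3 counts. Celf4 was at 74.8 CPM in jugular capsaicin replicate 2 against 40.5 to 43.9 CPM in the others, and Lcp1 at 15.4 CPM in jugular Trpv1-tdTomato replicate 1 against 72.4 to 89.5 CPM.

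In the nodose pools, capsaicin replicate 2 stood apart for Piezo2 (0.269 CPM against at most 0.0492 CPM), a value near the level of 3 counts at that depth. Cdh1 was at 3.25 CPM in nodose capsaicin replicate 1 against at most 0.202 CPM in the other nodose pools. Scn4b was at 4.20 CPM in nodose Trpv1-tdTomato replicate 1 against at most 0.0285 CPM, and Col1a2 at 0.256 CPM in nodose Trpv1-tdTomato replicate 2 against at most 0.00604 CPM. Tspan2 was at 0.202 CPM in nodose capsaicin replicate 2 against at most 0.0492 CPM, and Pla2g7 at 4.04 CPM in nodose Trpv1-tdTomato replicate 1 against at most 0.336 CPM. No gene examined here had both pools of each selection separated in opposite directions.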

How the results depend on the processing

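The number of genes called higher in jugular and higher in nodose was 33 and 28, and it depended on the test more than on the scaling. It was 91 and 87 over all genes with at least 1 count, 327 and 187 with DESeq2, 101 and 76 with edgeR's likelihood ratio test, 90 and 55 with limma-voom, 25 and 16 without the selection covariate, 15 and 20 in the Trpv1-tdTomato selection alone, 0 and 0 in the capsaicin selection alone, and 21 and 22 at an adjusted p of at most 0.05. Size factors, thinning of the deeper pools, leaving out Rn45s, which takes ribosomal RNA reads, and the other CPM conditions kept both counts within 1.5 times. Leaving out 1 pool gave 13 to 41 and 22 to 38. The fits of a single selection had only 4 pools, and why their counts were low was not tested. No called gene changed direction under any of these alternatives, and 48 to 61 of the 61 calls remained with size factors, DESeq2, the likelihood ratio test, limma-voom, thinning or no filter. Of 59 called genes, 29 kept an adjusted p of at most 0.1 whichever pool was left out, and 30 lost it in at least 1 of the 8 fits.

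Same-numbered pools did not deviate together (r -0.00586 and -0.0231). Replicate pools held few cells and differed widely (r of log2(CPM + 1) 0.572 to 0.736). The check therefore cannot tell whether the numbers pair the pools by animal. With the replicate number as a block within each selection the counts were 19 and 22, and 39 of the 61 calls remained. Interaction calls numbered 0, but 95 over all genes with at least 1 count, 648 with the likelihood ratio test and 1248 with DESeq2, and 0 to 194 when a pool was left out. Reversals were limited to genes not called: P2rx3 (log2 fold change -0.08) was 0.18 with limma-voom, 0.18 in the Trpv1-tdTomato selection alone and -0.32 to 0.19 when a pool was left out, positive without nodose Trpv1-tdTomato replicate 2 (0.19) or nodose capsaicin replicate 2 (0.12). Dcn (1.32) was -0.19 in the Trpv1-tdTomato selection alone and -0.18 to 4.38 when a pool was left out, negative without jugular capsaicin replicate 1. The causes were not tested. Levels under about 0.2 CPM are not resolved in the capsaicin pools.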
